A study of Mus musculus with 21 samples.

Results

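Aphidicolin added to an ATR inhibitor for 18 h was compared with the ATR inhibitor alone for 18 h, by the sites at which the single-stranded DNA binding protein RPA was enriched on chromatin. All 327 peaks of the combined treatment (ATRi+APH) and all 56 peaks of the inhibitor alone (ATRi) were used, which is 383 of the 683 peaks of the series, and peaks of the 2 lists were paired where they overlapped by at least 1 bp. The cells were passage-immortalized mouse embryonic fibroblasts that carry 1 functional copy of Atr, a genotype that every group of the study shares, and the labels do not say whether they are a single clone or how many embryos they came from. ATRi cells received the inhibitor called ATR-45 at 1 µM, and ATRi+APH cells received it at 1 µM together with aphidicolin at 0.2 µM, both for 18 h. RPA was precipitated with an antibody against its RPA32 subunit. The ATRi list was made from 2 ChIP and 2 input libraries and the ATRi+APH list from 3 ChIP and 2 input libraries, so 9 of the 21 libraries of the series stand behind the comparison.

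ATR is the checkpoint kinase that is activated by RPA-coated single-stranded DNA, and it restrains new origin firing and protects stalled replication forks. Aphidicolin inhibits the replicative DNA polymerases, and at low doses it slows forks rather than stopping replication. When a fork stalls and collapses, unwinding or end resection exposes single-stranded DNA, and RPA covers it. Such DNA can give an RPA peak, which is a place where the ChIP signal exceeded input. A peak does not tell in how many cells RPA was bound there.

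The authors pooled the libraries of each condition before they called peaks, so there was 1 value per peak and list, no spread between replicates could be computed and no test of the treatment was possible. Read depth per library is unknown. The lists ended at different levels, with a lowest −log10 p of 21.7 for ATRi+APH and 29.9 for ATRi, so a peak missing from a list is not shown to lack signal. The running number in the authors' peak names reached 9791 for ATRi+APH and 2111 for ATRi, so the deposited lists hold only part of the numbered calls. The treatments also differed in the number of ChIP libraries (3 and 2) and of antibody lots (3 and 2). These differences and aphidicolin cannot be told apart in any count or width below. Intervals given for shares cover counting error over peaks only.

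Sequence could be read at the few peaks that reached a RefSeq promoter window on GRCm38.p6, the assembly behind the mm10 coordinates of the peaks. A window runs from 250 bases before to 50 bases after an annotated start, and a gene can have more than 1 such start. Of 32851 windows, 9 were overlapped by an ATRi+APH peak, at 4 named and 4 predicted genes. The 5 shown represent the kinds of change described below: 2 promoters reached only when a peak widened, 1 reached by a gained peak, 1 at a site that narrowed, and 1 where a gained peak had its summit in a repeat. Each is written 5′ to 3′ along the gene, and capitals mark the bases inside the ATRi+APH peak.
Urgcp, chr11:5741127-5741426, minus strand: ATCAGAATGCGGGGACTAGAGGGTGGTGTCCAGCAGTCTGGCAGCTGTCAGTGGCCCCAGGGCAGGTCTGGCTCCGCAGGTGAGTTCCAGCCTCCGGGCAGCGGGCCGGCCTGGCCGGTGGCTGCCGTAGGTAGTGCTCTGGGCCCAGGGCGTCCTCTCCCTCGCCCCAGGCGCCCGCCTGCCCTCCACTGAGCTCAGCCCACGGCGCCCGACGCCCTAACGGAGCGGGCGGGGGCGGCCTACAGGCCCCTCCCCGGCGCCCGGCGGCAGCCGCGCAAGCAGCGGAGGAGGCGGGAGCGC
Gp9, chr6:87777820-87778119, plus strand: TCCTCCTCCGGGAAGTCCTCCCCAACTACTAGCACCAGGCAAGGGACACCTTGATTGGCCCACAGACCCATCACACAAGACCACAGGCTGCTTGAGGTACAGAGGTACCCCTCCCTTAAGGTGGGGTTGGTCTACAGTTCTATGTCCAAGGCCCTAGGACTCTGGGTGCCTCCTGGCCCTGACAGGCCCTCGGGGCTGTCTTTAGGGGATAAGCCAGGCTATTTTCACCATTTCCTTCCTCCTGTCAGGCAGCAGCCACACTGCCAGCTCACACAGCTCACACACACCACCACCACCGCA
Ptgr2, chr12:84285046-84285345, plus strand: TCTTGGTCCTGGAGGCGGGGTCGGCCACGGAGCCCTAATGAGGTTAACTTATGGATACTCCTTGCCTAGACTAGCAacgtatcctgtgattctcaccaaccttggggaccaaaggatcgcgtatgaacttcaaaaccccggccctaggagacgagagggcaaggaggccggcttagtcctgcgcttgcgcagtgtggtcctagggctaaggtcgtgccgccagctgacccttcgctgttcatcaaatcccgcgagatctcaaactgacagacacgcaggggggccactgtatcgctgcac
Polg, chr7:79466224-79466523, minus strand: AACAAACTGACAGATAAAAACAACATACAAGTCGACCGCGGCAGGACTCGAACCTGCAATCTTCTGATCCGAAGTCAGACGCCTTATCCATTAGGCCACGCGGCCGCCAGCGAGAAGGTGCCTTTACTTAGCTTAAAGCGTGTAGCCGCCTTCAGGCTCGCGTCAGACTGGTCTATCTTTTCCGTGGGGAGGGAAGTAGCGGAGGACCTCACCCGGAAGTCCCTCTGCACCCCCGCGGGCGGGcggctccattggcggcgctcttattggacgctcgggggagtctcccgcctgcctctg
Predicted gene on chromosome 4, chr4:118547156-118547455, plus strand: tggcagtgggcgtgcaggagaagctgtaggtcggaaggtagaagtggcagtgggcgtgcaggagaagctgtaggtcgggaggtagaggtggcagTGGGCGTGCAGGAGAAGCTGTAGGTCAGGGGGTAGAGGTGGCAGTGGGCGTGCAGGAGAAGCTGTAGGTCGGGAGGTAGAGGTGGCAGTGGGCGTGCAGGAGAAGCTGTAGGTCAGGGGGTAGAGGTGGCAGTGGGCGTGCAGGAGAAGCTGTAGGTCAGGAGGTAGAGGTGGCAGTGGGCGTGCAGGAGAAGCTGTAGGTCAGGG

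The Urgcp and Gp9 windows lay wholly inside the ATRi+APH peak, with 300 of 300 bases covered, and had 0 bases inside the ATRi peak of the same site. Both of these windows, and that of Polg, lie inside the annotated gene body and not at its outer start. The Ptgr2 window had 76 bases covered with ATRi+APH and 0 with ATRi. The Polg window went the other way, with all 300 bases inside the ATRi peak and 243 inside the ATRi+APH peak, and it contains the whole arginine tRNA gene n-TRtcg5 (chr7:79466419-79466491, 73 bp). The window of the predicted gene on chromosome 4 matched itself at a shift of 44 bases over 96.1% of the compared bases, and at 88 bases over 97.6%, as a tandem repeat does. Only 18 of the 32851 windows (0.0548%) reached 80% at any shift from 10 to 100 bases, and the best match of the other 4 windows shown lay between 30.2 and 38.3%, beside a median of 33.8% over all windows. The gained peak there (chr4:118547250-118547472, 7.67-fold) had its summit inside the repeat. GGTTCGA on either strand, the core of the B box of tRNA promoters, occurred in the Polg window alone of the 5 and in 0.91% of all windows. A run of 6 CA units and a run of 2 CAGAGG units, on either strand, occurred in none of the 5 shown, and in 1.01% and 0.134% of all windows. These matches describe the letters of the windows and say nothing of what was bound there.

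With aphidicolin many sites were listed that were not listed with ATRi alone, and nearly all ATRi sites were listed again. Of the 327 ATRi+APH peaks, 273 (83.5%, exact 95% interval 79 to 87.3%) had no ATRi peak overlapping them and are called gained here. For comparison, 46.2% of the 65 peaks of the same drugs at 9 h, 76.1% of the 188 peaks of the inhibitor with Timeless knockdown (ATRi+shTIM) and 93.5% of the 46 DMSO peaks had no ATRi peak overlapping them. In the other direction 54 of the 56 ATRi peaks were paired, and only 2 (3.57%) were not. Each of the 54 had exactly 1 partner, so there were 54 paired sites. When both lists were held to a −log10 p of at least 29.9, 159 gained peaks were left of 211. When the ATRi+APH list was held to its 56 peaks of highest fold, 31 of those were gained.

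Gained peaks were weaker and often narrower than paired ones within the same list. The classes were not made on equal terms, since a paired peak had also to be in the ATRi list, which ended higher. At or above the lowest −log10 p of that list, 29.9, stood 52 of 54 paired and 159 of 273 gained peaks. How much of the difference comes from this was not tested. Fold here is the authors' value per peak, the ChIP signal at the summit relative to input. It had a median of 9.29 over the 273 gained peaks (interquartile range 6.42 to 12.3) and 16.2 over the 54 paired ones (9.6 to 32.4). The 16 highest folds of the list all belonged to paired peaks, and the first gained peak stood at rank 17. Among the top 25 there were 7 gained peaks, and among the top 50 there were 26. Gained peaks had a median width of 267 bp (interquartile range 128 to 683) beside 340.5 bp for paired ones (155.75 to 2272), 111 of them were under 200 bp wide, and 45 were at least 1 kb wide. The plot of fold against width shows gained peaks mixed with paired ones at small widths and below them at the largest widths.

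**Figure D1:**
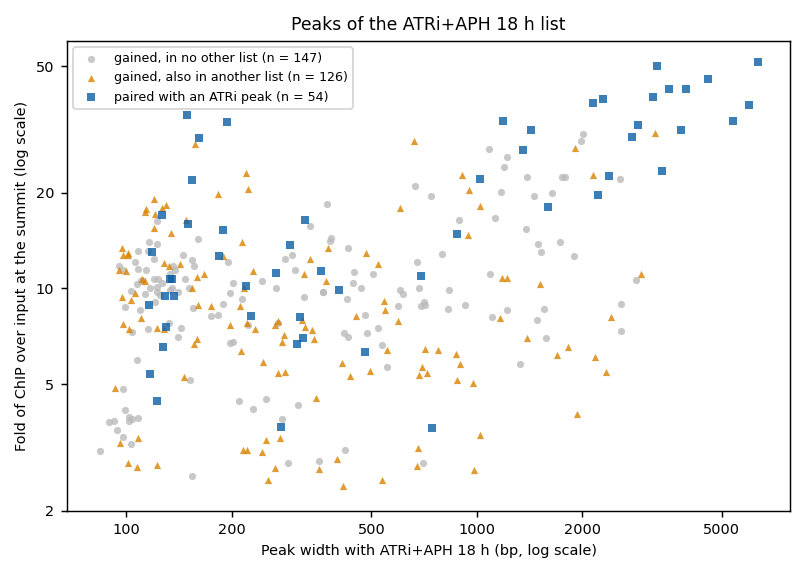
Width in bp (x axis, log scale) and fold of ChIP over input at the summit (y axis, log scale) of the 327 ATRi+APH 18 h peaks, 1 point per peak, by whether an ATRi peak overlapped it. The 54 paired peaks reach 51.6-fold and 6317 bp, while the 273 gained peaks reach 30.9-fold and 3229 bp.

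The libraries of the other treatments were not used to choose the gained peaks. The ATRi+shTIM list, in which Timeless of the fork protection complex was knocked down in place of aphidicolin, held 120 of the 273 gained peaks (44%, interval 38 to 50.1%). The ATRi+APH 9 h list held 30 (11%, interval 7.54 to 15.3%), and all 30 were also in the ATRi+shTIM list. Of the 54 paired peaks, 46 were in the ATRi+shTIM list and 35 in the 9 h list. The DMSO list held 6 gained peaks and the list of aphidicolin alone held 1, and 147 gained peaks (53.8%) were in no other list. The lists ended at a −log10 p of 34 for 9 h and 10.7 for ATRi+shTIM, so these shares also reflect how far down each list went.

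Most of the strongest gained peaks had close neighbours. Of the 15 of highest fold, 7 lay within 1 kb of a paired site, 11 were at least 1 kb wide, and 12 formed the left or right member of 2 neighbouring broad peaks whose summits face the gap between them. Of all 273 gained peaks, 22 (8.06%) lay within 1 kb of a paired site, 45 (16.5%) were at least 1 kb wide and 37 were such members. The first, at 30.9-fold, was 3229 bp wide and stood 22147 bp from Klf15, which encodes a zinc finger transcription factor (chr6:90513950-90517178). It ended 254 bp from a paired peak, and a second gained peak of 157 bp and 28.5-fold lay inside the same group (chr6:90517957-90518113). The next stood 16281 bp from Cd24a, which encodes a surface glycoprotein (chr10:43560888-43562888, 2001 bp, 30.5-fold), and ended 276 bp from a paired peak. The gained peak at Ptgr2, which encodes a prostaglandin reductase, was 1984 bp wide (chr12:84283138-84285121, 29.2-fold), began 291 bp from a paired peak and covered the promoter bases shown above. The gained peak near Prkci, which encodes an atypical protein kinase C, lay 461 bp from its paired neighbour (chr3:31069064-31070146, 27.5-fold). Each of these gained peaks of high fold thus stood beside a site already listed with ATRi.

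Others of the 15 lay over 1 Mb from any paired site. A group near Slit3, which encodes a secreted guidance ligand, held 2 of them, at 29.2-fold and 22.8-fold (chr11:35731245-35731904 and chr11:35732305-35733213), and both were also in the 9 h and ATRi+shTIM lists. The gained peak near Fam136a was 1907 bp wide (chr6:86329936-86331842, 27.7-fold) and was in the ATRi+shTIM list. A group near Cyp8b1, which encodes the sterol 12-alpha-hydroxylase of bile acid synthesis, held 2 as well, at 25.8-fold and 22.5-fold (chr9:121931873-121933091 and chr9:121927771-121929548), and was in no other list. The gained peak near Plekhg6 reached 22.3-fold (chr6:125417797-125419184). The narrowest of those far from a paired site was 220 bp wide, lay 505921 bp from Api5 (chr2:94944107-94944326, 23.1-fold) and was in both the 9 h and ATRi+shTIM lists.

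A recurring arrangement was a broad peak on each side of a short gap, with both summits close to the gap. It was defined, after the peaks had been seen, as neighbouring peaks of 1 list, each at least 300 bp wide and at most 3 kb apart, in which the summit of the left peak lies in its right part and that of the right peak in its left part. Of 40 neighbouring broad pairs in the ATRi+APH list that met the limits of width and gap, 27 faced each other in this way (67.5%). The ATRi list held 4 neighbouring broad pairs, and all 4 faced each other. ATRi+APH held all of these 4, another 9 in which ATRi had listed only 1 flank, and 14 in which it had listed neither. The summit stood a median of 89 bp from the edge at the gap (interquartile range 79.2 to 127) over the 54 flanks. By the same definition 3 of 5 neighbouring broad pairs faced each other in the 9 h list and 6 of 14 in the ATRi+shTIM list. The widest DMSO peak was 292 bp, so that list could hold no pair under this definition.

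At the 4 sites that ATRi had already listed on both sides, the gap stayed in place while the flanks grew away from it. They lay near Gata4, which encodes a cardiac and endodermal regulator of transcription, at Gp9, a platelet glycoprotein gene, between Gdf3, a TGF-beta ligand, and Dppa3, a maternal factor of early embryos, and near Slc7a10, an amino acid transporter. The gap near Gata4 was 293 bp with ATRi and 280 bp with ATRi+APH. The gap at Gp9 was 392 and 370 bp, that between Gdf3 and Dppa3 622 and 621 bp, and that near Slc7a10 977 and 957 bp. Across the same 4 sites the left flanks extended outward by 896, 1354, 1508 and 3184 bp and the right flanks by 1745, 2024, 3829 and 2000 bp, in the order just given. Thus all 8 outer edges moved outward by at least 896 bp, and no gap changed by more than 22 bp.

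At the 9 sites with 1 flank listed under ATRi, the other flank was in the list with ATRi+APH. They lay near Cd24a, Ptgr2, Prkci, Mtss1, which encodes a membrane-bending protein, and Adgrl1, which encodes an adhesion receptor of neurons. Others lay within Prkdc, which encodes the catalytic subunit of the DNA repair kinase DNA-PK, within Myo5a, which encodes a myosin motor, and within Cldn34-ps, and 1 lay in the group at the start of chromosome 10. The gained flanks were 373 to 2148 bp wide (median 1381), and the gaps were 203 to 862 bp (median 461). The −log10 p of the 9 gained flanks ran from 51.5 to 114, above the lowest value of the ATRi list in every case. Of all 273 gained peaks, 159 (58.2%) were at or above that value. The flank listed with ATRi had the higher fold in 7 of the 9, and the lower of the flank folds was a median of 0.741 of the higher. Within Myo5a, for example, the flanks reached 22.1-fold and 22.5-fold, and within Prkdc 18.4-fold for the gained flank and 27.2-fold for the other. None of the 9 gained flanks was in the 9 h list and 2 were in the ATRi+shTIM list. The 9 flanks already listed with ATRi included 6 in the 9 h list and 5 in the ATRi+shTIM list. For comparison, the 9 h list held 11% of all gained and 64.8% of all paired peaks. The ATRi+shTIM list held 44% of all gained and 85.2% of all paired peaks.

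**Figure D2:**
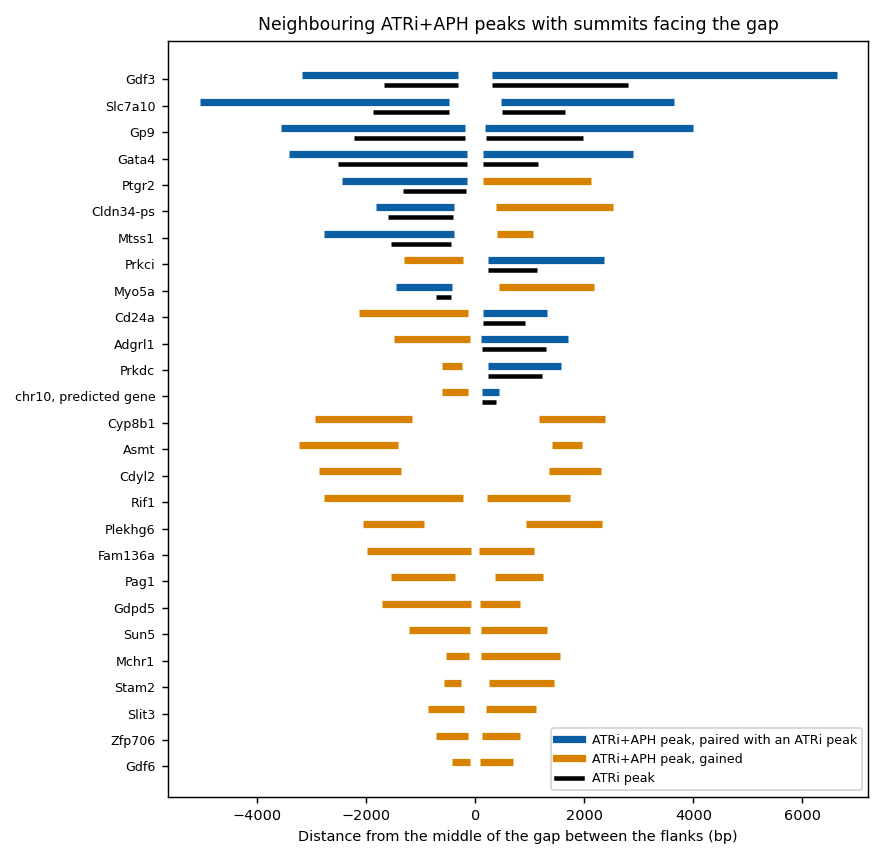
Positions of the 27 facing pairs of the ATRi+APH 18 h list, as distance in bp from the middle of the gap (x axis), 1 row per pair named by the coding gene at or nearest to it. Thick bars are ATRi+APH peaks, paired (blue) or gained (orange), and thin black bars are ATRi peaks: 4 pairs have 2 black bars, 9 have 1 and 14 have none.

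At the other 14 facing pairs both flanks were gained. Their 28 flanks were 321 to 2557 bp wide (median 1116) with folds of 6.53 to 29.2 (median 17.4). Of the 28, 24 had a −log10 p above the lowest value of the ATRi list, beside 58.2% of all 273 gained peaks. They lay near Slit3, Fam136a, Cyp8b1, Plekhg6, near Rif1, which encodes a regulator of replication timing and break repair, near Cdyl2, a chromodomain protein, near Mchr1, a neuropeptide receptor, near Gdf6, a BMP ligand, and near Zfp706. Inside genes they lay in Gdpd5, a phosphodiesterase gene, in Pag1, an adaptor of Src family kinases, in Sun5 and in Stam2, an adaptor of endosomal sorting, and the last was at the end of chromosome X beyond Asmt. Near Rif1 the flanks were 2557 and 1521 bp wide with a gap of 442 bp. Within Pag1 they were 1174 and 887 bp wide and 732 bp apart, at 20.1-fold and 16.4-fold. Of the 28 flanks, 11 were in the ATRi+shTIM list and 3 in the 9 h list, beside 44% and 11% of all 273 gained peaks. With a gap of at most 1 kb there were 10 such pairs, and with flanks of at least 500 bp there were 11.

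Within Stam2 the gained pair stood to the right of a paired peak that had itself grown. The paired peak was 715 bp wide with ATRi and 2212 bp with ATRi+APH (chr2:52694338-52696549), its left edge moved outward by 1499 bp and its right edge shifted by −2 bp. The gained peak of highest fold in this gene (chr2:52698967-52700157, 24.1-fold) began 2417 bp beyond the fixed right edge, with its summit 81 bp from its own left edge.

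Some gained peaks came in dense groups. With peaks under 10 kb apart joined, the 273 gained peaks formed 192 groups, of which 177 held no paired peak. Most of these groups were a single peak, since 143 gained peaks had no other peak within 10 kb. Only 8 groups had at least 4 peaks, and they held 50 gained peaks. Gained peaks were on all 20 chromosomes that were listed, and the 54 paired peaks, which were fewer, were on 17. For comparison with the groups below, 83.5% of all 327 peaks were gained. Of all 273 gained peaks, 44% were in the ATRi+shTIM list, 11% in the 9 h list and 2.2% in the DMSO list. The largest concentration was at the end of chromosome X (chrX:170731958-170857956), where 22 of 23 peaks were gained, with folds of 5.3 to 16.4, and 17 of the 22 were in the ATRi+shTIM list and 0 in the 9 h list. On the same chromosome 7 gained and 2 paired peaks stood between 135040271 and 135054732. A stretch of 2712 bp on chromosome 13, 34407 bp from Zfp825, held 5 gained peaks beside 1 paired peak, and all 5 were in the ATRi+shTIM list. A group of 9 peaks at the start of chromosome 10 (chr10:3110111-3117163) was mostly paired already, with 3 gained. At the start of chromosome 9 a group of 5 gained peaks had folds of only 2.71 to 3.08, and 4 of these overlapped a DMSO peak. On chromosome 18 a group of 5 gained peaks spanned 3198 bp (chr18:13296484-13299681).

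The isolated gained peaks, with no other peak of the list within 10 kb, are the single peaks among the groups counted above. There were 143 of them, with a median width of 189 bp, and 72 were under 200 bp wide. In the ATRi+shTIM list 61 of the 143 were found (42.7%) and in the 9 h list 18 (12.6%). These shares are near the 44% and 11% of all 273 gained peaks. Those of highest fold, chosen after their values were seen, were the peak far from Api5, 1 near Pcdh1, which encodes a protocadherin (20.5-fold), 1 near Stx18, which encodes a syntaxin of the secretory pathway (19.8-fold), 1 inside Trpm3, a cation channel gene (19.1-fold), and 1 near L1cam, which encodes a neural adhesion molecule (18.3-fold). Each of these 5 was 120 to 222 bp wide and was in the ATRi+shTIM list.

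Position against genes was compared for gained and paired peaks. Summits lay within a protein-coding gene for 82 of 273 gained peaks (30%, interval 24.7 to 35.9%) and 14 of 54 paired peaks (25.9%, interval 15 to 39.7%), and the intervals overlap. Genes longer than 300 kb, of which the table holds 556, contained 14 gained peaks (5.13%) in 13 genes and 2 paired peaks (3.7%). The gained ones included 2 in Akap6, which encodes an anchoring protein of protein kinase A (15.8-fold and 14.3-fold), 1 in Trpm3, 1 in the estrogen receptor gene Esr1 (11.7-fold) and 1 in Dpyd, which encodes the first enzyme of pyrimidine breakdown (11.4-fold). The other 9 genes with 1 gained peak each were Bcas3, Gphn, Msra, Ppp2r2b, Camk1d, Nkain3, Pde4b, Camta1 and Ntm. None of the 18 common fragile site genes matched in the table, such as Fhit and Wwox, held a gained peak, and 0 of 273 allows a share of up to 1.1%. Histone, snRNA, snoRNA and rRNA genes likewise had 0 gained peaks within 1 kb. Paired peaks were also 0 of 54 at the fragile site, histone, snRNA and rRNA genes, which allows a share of up to 5.56%. At snoRNA genes there was 1 paired peak (1.85%). A single gained peak lay within 10 kb of vomeronasal receptor genes, Vmn2r1 and Vmn2r2, which encode pheromone receptors (chr3:64170259-64172840, 8.91-fold). A single paired peak did so too, at Vmn1r66, so the shares were 0.366% of gained and 1.85% of paired peaks.

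At the paired sites, most broad peaks were wider with ATRi+APH and most narrow peaks were slightly narrower. In all, 30 of 54 sites were wider with ATRi+APH (55.6%) and 24 were narrower, with a median ratio of 1.15 (interquartile range 0.889 to 2.09). The widths with ATRi fell into separate ranges, with none between 307 and 544 bp, and were divided there after they had been seen. Of the 25 sites at least 500 bp wide with ATRi, 21 were wider with ATRi+APH, 16 at least 1.5 times and 12 at least 2 times, and the median ratio was 1.99 (1.37 to 2.4). Of the 29 narrow sites, 9 were wider, 4 of them at least 1.5 times and 2 at least 2 times, and 20 were narrower, with a median ratio of 0.947 (0.866 to 1.13). The 25 broad sites covered 34108 bp with ATRi and 66496 bp with ATRi+APH, and the 29 narrow sites 5601 and 6732 bp. The part of library number and depth in these widths was not tested.

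**Figure D3:**
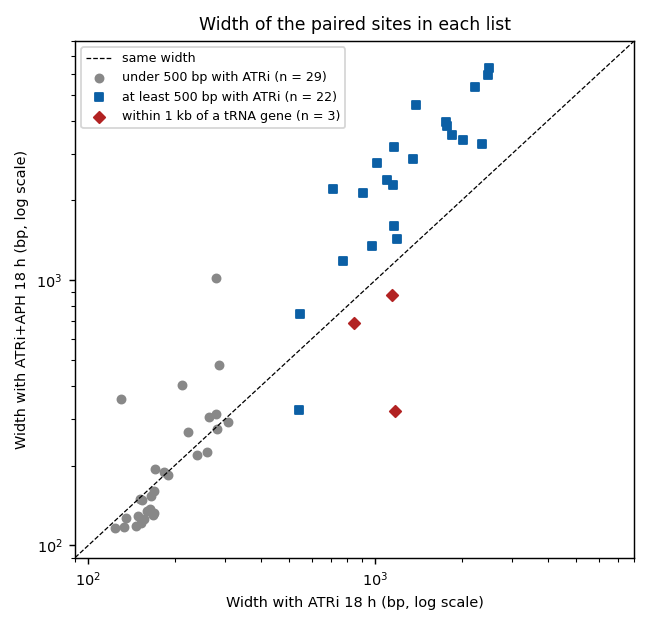
Width in bp of each of the 54 paired sites with ATRi 18 h (x axis) and with ATRi+APH 18 h (y axis), both on log scales, with the dashed line at equal width. Of the 25 sites at least 500 bp wide with ATRi, 21 lie above the line, and the 3 sites at tRNA genes lie below it.

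Widening was mostly on 1 side. An edge was counted as moved when it lay more than 100 bp further out with ATRi+APH. Among the 25 broad sites, 19 moved outward on 1 side, 2 on both sides and 4 on neither. At the 19, the moved edge shifted by a median of 1354 bp (range 204 to 3829), and the other edge by a median of 7 bp (range −11 to 57). The left edge moved at 10 of the sites and the right edge at 9. Beyond the edge that stayed, another ATRi+APH peak followed within 3 kb at 17 of the 19, a paired peak at 9 and a gained one at 8. These counts largely restate the facing pairs described above. In the 4 pairs listed on both sides with ATRi, each flank was counted as the neighbour of the other. Most of the gained neighbours were also the other flank of a facing pair. Neighbours beyond the moved edge were not counted. With ATRi+APH the summit lay nearer the fixed edge in 18 of the 19 sites, and with ATRi in 17. The ATRi+APH count follows largely from the choice of sites, since only 1 edge moved away while the summit moved little. At the 25 broad sites the summits of the 2 lists lay a median of 42 bp apart (interquartile range 9 to 88, highest 341), and 16 of the 25 were within 50 bp. At the 29 narrow sites, where the width leaves less room, the median was 10 bp and 28 were within 50 bp.

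The largest gains in width show these forms. The peak between Gdf3 and Dppa3 went from 2494 to 6317 bp, entirely at its right edge (chr6:122616002-122622318). The left peak near Slc7a10 went from 1382 to 4570 bp (chr7:35155300-35159869), and the right peak near Klf15 from 1767 to 3936 bp (chr6:90518716-90522651). The 2 sites that grew on both sides lay near Rgma, which encodes a repulsive guidance molecule, and near Rnf145, an E3 ubiquitin ligase gene. The site near Rgma went from 2481 to 5961 bp, with 2368 bp added on the left and 1112 bp on the right (chr7:73320842-73326802). The site near Rnf145 went from 2229 to 5368 bp, with 1193 and 1946 bp added (chr11:44500284-44505651). The peak in Urgcp, a regulator of cell proliferation, grew from 1855 to 3541 bp on the left alone, over the promoter window shown above. No other peak lay within 3 kb of its fixed edge (chr11:5740330-5743870). The highest ratio of all, 3.67, belonged to a narrow site, within Myo5a, which was 278 bp wide with ATRi and 1020 bp with ATRi+APH.

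**Figure D4:**
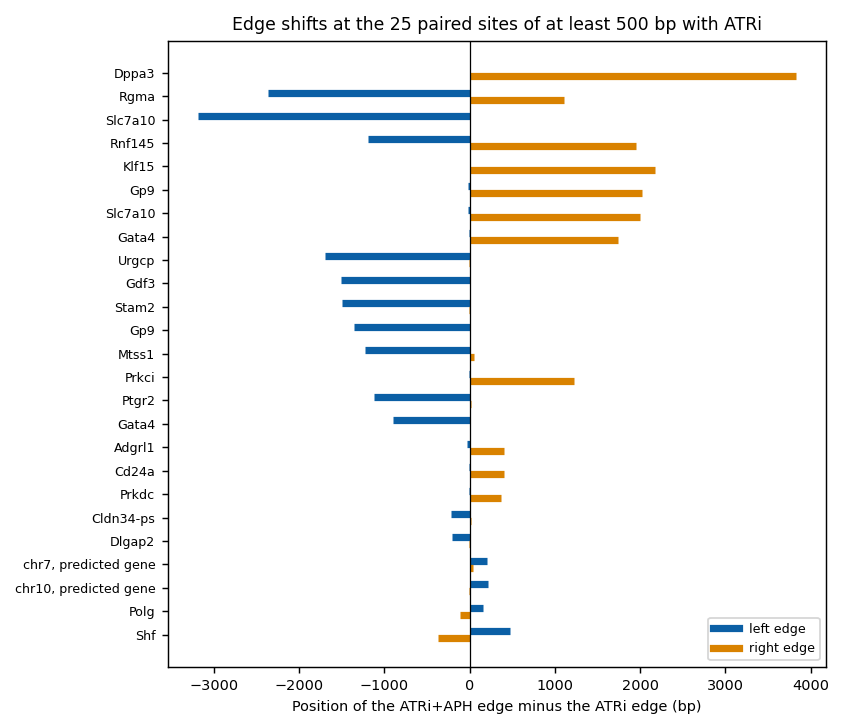
Shift in bp of the left (blue) and right (orange) edge from the ATRi 18 h list to the ATRi+APH 18 h list at the 25 paired sites at least 500 bp wide with ATRi (x axis, 0 is the ATRi edge), 1 row per site ordered by change in width. A bar to the left for the left edge, or to the right for the right edge, is outward: 19 sites moved outward on 1 side, 2 on both and 4 on neither.

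The sites that narrowed included those at tRNA genes. Genes for tRNA are short, densely transcribed by RNA polymerase III and often clustered. Within 1 kb of such a gene there were 4 ATRi peaks (7.14% of 56). With ATRi+APH, 1 of these was not listed and the other 3 were narrower. The site with the genes n-THgtg3 and n-THgtg5, 8665 bp from Shf, went from 1168 to 320 bp (chr2:122377812-122378131), and both edges moved inward, with outward shifts of −476 and −372 bp. The site at n-TRtcg5 and the Polg promoter window went from 1145 to 877 bp (chr7:79466281-79467157), and that at n-TLtag1 from 845 to 692 bp (chr7:120835162-120835853). The other 22 broad sites included 21 that widened and 1 that narrowed, at the start of chromosome 10 (from 544 to 323 bp). Among the narrow sites the largest loss was near Taar6, a trace amine receptor gene, from 168 to 130 bp. The 3 tRNA sites were in neither the 9 h nor the ATRi+shTIM list, while 15 and 19 of the other 22 broad sites were. At the same time 4 gained peaks lay within 1 kb of tRNA genes (1.47% of 273). Of these, 3 lay in tRNA gene clusters of chromosome 13: at n-TLaag5, n-TLaag7 and n-TMcat15 (chr13:21169681-21170284, 9.92-fold), at n-TAagc12 and n-TVaac2 (chr13:23400757-23401235, 8.27-fold) and at n-TGgcc6, n-TMcat6 and n-TStga1 (chr13:23517139-23517405, 10.1-fold). The other, at n-THgtg4, stood beside the narrowed site near Shf (chr2:122375450-122375692, 10.6-fold).

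The 2 ATRi peaks without a partner were of middling strength in their own list. The first, at the tRNA gene n-TQctg6 and 16 bp from Hes7, a gene of the segmentation clock, was 821 bp wide with a fold of 10.4, rank 18 of 56 (chr11:69124070-69124890). The second lay in the immediate early gene Egr1, was 861 bp wide and had a fold of 10.1, rank 19 (chr18:34861030-34861890). The nearest ATRi+APH peaks were 621599 bp and over 1 Mb away, and neither ATRi peak was in any other list.

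The paired sites were ranked again among themselves by fold in each list, since ranks from lists of different lengths cannot be compared. The order was kept in part, with Spearman's rho 0.723 and Pearson's r of the folds 0.683 over the 54 sites, which share libraries and inputs within each list. By −log10 p in place of fold rho was 0.36, and by width it was 0.933. Of the 5 sites of highest fold with ATRi, 3 were among the highest 5 with ATRi+APH, and of the highest 10, 4 were. The right peak between Gdf3 and Dppa3 went from rank 3 (14.7-fold in the ATRi list) to rank 1 (51.6-fold in the ATRi+APH list), and the left peak near Gata4 from rank 1 to rank 2. The 10 paired sites of highest fold with ATRi+APH were those 2, both flanks near Slc7a10 (45.5-fold and 39.9-fold), and the sites at or near Klf15, Urgcp (42.3-fold), Ptgr2 (39.4-fold), Prkci (38.3-fold), Rgma and Spon1.

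Broad sites away from tRNA genes rose in rank more often than they fell. Of those 22 sites 15 rose and 5 fell, with a median change of 5.5 places, and of the 29 narrow sites 13 rose and 13 fell. Over all 25 broad sites, with those at tRNA genes, 15 rose and 8 fell, with a median change of 5 places. The largest rise was at Urgcp, from rank 37 to rank 5. The site near Rgma rose from 26 to 9 and the right peak near Slc7a10 from 21 to 6. The other 2 of the 5 largest rises were both in the group at the start of chromosome 10, from 42 to 27 and from 44 to 31. Of the broad sites away from tRNA genes that fell, the one with the largest fall was the left peak near Gp9, from 9 to 20. The change of rank and the change of width in bp had a Spearman's rho of 0.389 over the 54 sites and 0.232 over the 25 broad ones.

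In all, 21 of the 54 sites fell in rank: 13 narrow sites, the 3 broad sites at tRNA genes and the 5 other broad sites, and the 5 largest falls were at narrow sites and tRNA genes. Cd163l1, a scavenger receptor gene, held a peak of 190 bp with ATRi and 184 bp with ATRi+APH (chr7:140221256-140221439) and fell from rank 4 to rank 33. A site of 147 bp in a predicted gene on chromosome 4 fell from 7 to 32, and the site 549 bp from Pik3r6, which encodes a regulatory subunit of a PI3 kinase, from 25 to 43. At the tRNA genes, the Polg site fell from 6 to 30, that at n-TLtag1 from 12 to 36 and that near Shf from 34 to 47. Among the narrow sites that rose, the peak near Klf15 (chr6:90517433-90517626, 171 bp with ATRi) went from rank 23 to rank 13. The peak of 154 bp near Spon1, an extracellular matrix protein gene, was at rank 8 with ATRi and rank 10 with ATRi+APH, at 35.2-fold in the latter list (chr7:113703690-113703838).

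**Figure D5:**
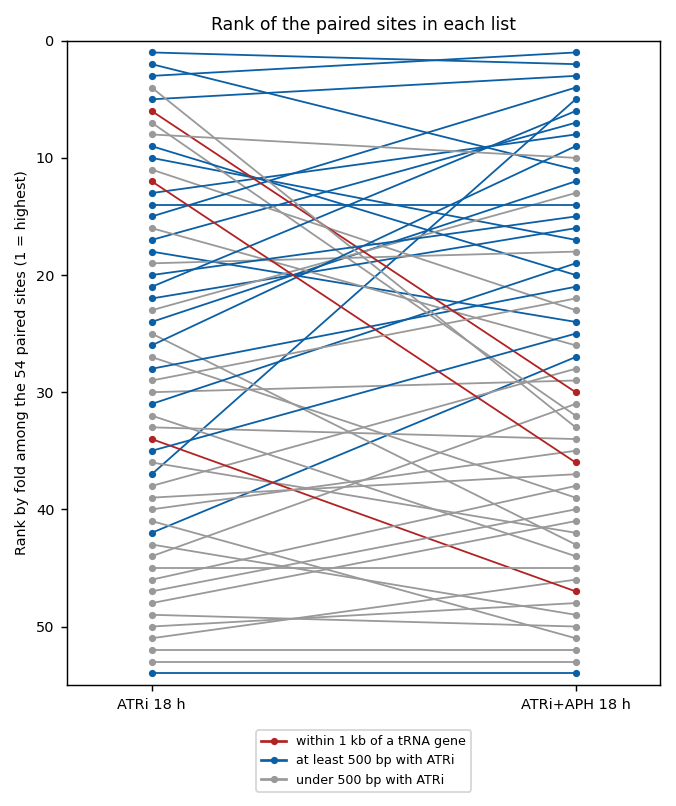
Rank by fold among the 54 paired sites (y axis, 1 is the highest) in the ATRi 18 h and the ATRi+APH 18 h list, 1 line per site. Lines of broad sites away from tRNA genes (blue) mostly run up or level, the 3 sites at tRNA genes (red) run down by 13 to 24 places, and narrow sites (grey) run both ways.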

How the data were processed

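RPA ChIP-seq libraries of mouse embryonic fibroblasts were compared through the peak lists that the authors deposited, 1 per condition. Per the labels' protocols, chromatin was sheared to under 4 kb, and fragments of about 200 bp were amplified for 18 PCR cycles. The submitters' processing notes name the mm10 build, MACS2 2.1.0, Picard 1.141, SAMtools 0.1.19, STAR 2.5.2a and bcl2fastq 2.17.1.14, without roles or settings. Peak names in the deposited files record all ChIP libraries of a condition against all its inputs and an idr step whose threshold is not given in the sources used here. The deposited fold (a ratio) and −log10 p were used; the deposited −log10 q and score columns were not.

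Peaks were paired with Python 3.11.15, pandas 2.3.3 and SciPy 1.17.1 by an overlap of at least 1 bp; the pairing was tested on simulated data. Intervals are exact Clopper-Pearson at 95%, and a count of 0 is given the limit that 3 counts allow. Equal folds were ranked by position. No test was run. Genes and promoter sequences came from RefSeq on GRCm38.p6, for chromosomes 1 to 19 and X. A peak took the coding gene that holds its summit, else the nearest coding gene body.

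Named are the 15 gained peaks and 10 paired sites of highest fold, the 5 largest gains and losses of width, the 5 largest rises and falls of rank, all unpaired ATRi peaks, the 5 gained peaks of highest fold within 10 kb of a paired site and the 5 in no other list, gained peaks at listed genes, and facing pairs. Predicted genes, known by a number alone, were only counted. Members, lists and definitions were chosen with earlier results of these data known.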

Additional observations from a re-analysis of the deposited data

How the results depend on the processing

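Of 45 alternatives over 13 results, 36 left the value within its interval, or a count within 1.5 times. A change of direction could be scored only for the edge shifts and the rank order, and none occurred there. The alternatives with exactly 1 peak in each list kept all 54 paired sites, so they could only repeat the main values. Gained sites numbered 159 at a common −log10 p, 140 among peaks of at least 10-fold and 31 with lists of equal length, where 44.6% of ATRi peaks were paired; fewer peaks enter each of these by construction. Within 1 kb, 8.06% of gained peaks lay near a paired site, in place of 13.9% within 10 kb. Merging peaks within 1 kb moved the median outward shift of the left edge from 2 to 125 bp and of the right edge from 3.5 to 9 bp. Rank order had a rho of 0.36 by −log10 p and 0.933 by width; the cause was not tested. Alternatives for facing pairs and broad sites were chosen after seeing the data: facing pairs numbered 22 to 25 in place of 27, and 88.9% of sites at least 1 kb wide and 95.5% of broad sites away from tRNA genes widened, in place of 84%.

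No paired analysis was possible because each list pools all libraries of its condition, and leaving out a replicate was not possible for the same reason. Unknown depth limits every count and width.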

Other observations

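Of the 9 gained flanks beside a flank listed with ATRi, 2 were in the ATRi+shTIM list and none in the 9 h list, beside 44% and 11% of all 273 gained peaks. Within Cldn34-ps the gained right flank was in the ATRi+shTIM list (chrX:77678474-77680621, 22.8-fold), as was that in the group at the start of chromosome 10 (chr10:3112105-3112585, 13.0-fold), while the gained flanks near Cd24a, Ptgr2, Prkci, Mtss1 and Adgrl1 and within Prkdc and Myo5a were in no other list. The 4 facing pairs listed on both sides with ATRi were also listed on both sides in the ATRi+shTIM list.

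Not every neighbouring broad pair faced its gap. Near Fam136a 3 broad peaks stood in a row, of 1907, 1018 and 926 bp, with gaps of 140 and 154 bp, and near Slit3 another 3, of 1894, 660 and 909 bp, with gaps of 143 and 400 bp. In each row only 1 of the 2 gaps was faced by both summits.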
